A study of Mus musculus with 15 samples.

Results

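The proteins of the cytosolic ribosome are encoded in mouse by genes named Rpl (large, 60S subunit) and Rps (small, 40S subunit). They were taken from the deposited gene table by symbol: Rpl or Rps followed by a digit, leaving out symbols with a k (the S6 kinases) and the "-ps" pseudogenes, and adding Rpsa, Rplp0, Rplp1 and Rplp2. The rule found 89 genes among 22507. Of these, 77 encode core subunits of the ribosome, 43 of the 60S body, 31 of the 40S subunit and 3 of the stalk, and 10 are paralogues or retrocopies of a core gene. The remaining 2 match the name pattern but encode no ribosomal protein, Rps19bp1 and Rps23rg1. A filter on low counts left 13074 genes, 87 of them from this set; Rpl3l and Rps23rg1 were too low to test. The tested genes include all 77 core genes.

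The cells were N2a, an established line from a mouse neuroblastoma, sampled on day 3 for RNA-seq in 15 libraries that form 5 groups of 3. Every group was transfected with siRNA at 50 nM together with a plasmid. The control group had siControl and the control plasmid, and the knockdown group had siOPA1 and the control plasmid. The other 3 groups had siOPA1 with a plasmid for OPA1, for OPA1-V560F or for OPA1-V465F, so all 4 groups other than control carry the knockdown. The transfection was of a cell population, the species of the OPA1 insert is not stated in the labels, and no group received an OPA1 plasmid without siOPA1. Separate cultures are not stated for the 3 libraries of a group, and the spread that p-values are set against may be technical. OPA1 itself is a dynamin-related GTPase that fuses inner mitochondrial membranes.

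Each ribosome holds about equal numbers of nearly every ribosomal protein, and cells keep the mRNAs of the family at balanced, very high levels. These mRNAs are short and start with a run of pyrimidines, the 5′ terminal oligopyrimidine (TOP) tract, through which the kinase mTORC1 controls their translation. Ribosomal proteins made in excess are degraded, and Rpl5 and Rpl11 that are free of the ribosome, bound to 5S rRNA, inhibit Mdm2 and so raise p53. In human neuroblastoma the family is known as a target of MYCN, which drives ribosome production.

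The annotated starts of these genes can be read from their promoters, and a pyrimidine run at that start was not shared by all of them. RefSeq promoters (GRCm38.p6, 250 bases before to 50 after the start) were found for 68 of the 89 genes. The windows below run from 60 bases before the start to 15 from it, so that the base after the first 60 is the start. Capitals mark a run of C and T at the start (at least 5 letters), the ETS core CCGGAAG or the letters TCTCGCGA, each on either strand; in TCTCGCGAGA the last of these lies on both strands and overlaps itself. Rps6, Rps27, Rpl38 and Rps10 are shown as core genes with a pyrimidine run at the start, and Rpl7l1 and Rps19bp1 because their counts moved apart from the family.
Rps6, chr4:86857353-86857427, minus strand: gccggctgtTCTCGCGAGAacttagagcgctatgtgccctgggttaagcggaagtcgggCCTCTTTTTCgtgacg
Rps27, chr3:90213634-90213708, minus strand: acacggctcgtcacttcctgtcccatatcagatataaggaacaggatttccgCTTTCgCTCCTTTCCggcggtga
Rpl38, chr11:114668520-114668594, plus strand: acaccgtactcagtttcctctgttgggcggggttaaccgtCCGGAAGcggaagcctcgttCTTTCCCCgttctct
Rps10, chr17:27635230-27635304, minus strand: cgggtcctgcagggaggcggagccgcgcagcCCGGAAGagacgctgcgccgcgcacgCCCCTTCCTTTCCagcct
Rpl7l1, chr17:46782642-46782716, minus strand: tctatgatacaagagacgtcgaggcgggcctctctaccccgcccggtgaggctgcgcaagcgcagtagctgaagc
Rps19bp1, chr15:80264292-80264366, minus strand: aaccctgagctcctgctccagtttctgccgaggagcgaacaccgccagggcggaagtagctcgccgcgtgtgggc

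In the whole promoter, on either strand, CCGGAAG stood in 26 of the 68 genes (38.2%) and in 9.93% of 27025 genes with a RefSeq promoter. TCTCGCGA stood in 11 (16.2%), against 1.13% of all genes. AAGATGG, the core that YY1 binds, stood in 14.7% against 7.28%, CACGTG (an E-box, bound by MYC proteins) in 8.82% against 8.09%, and TATAAA in 11.8% against 15.7%. A run of C and T of at least 5 letters beginning with C at the first base itself was found in 15 genes (22.1%) and in 3.01% of all. Within the stretch from 5 bases before to 10 after the start, such a run stood in 32 genes (47.1%) against 21.2% of all. The windows of Rpl7l1 and Rps19bp1 held neither CCGGAAG nor TCTCGCGA in the stretch shown, and no such run from 5 bases before to 10 after the start. The same was true of core genes that rose with the family, such as Rpl5, Rplp0 and Rpsa. The absence thus does not set Rpl7l1 and Rps19bp1 apart. A match is a description of these letters and shows no bound factor.

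At the level of mRNA the family was among the most abundant in the cells. The mean FPKM (fragment counts divided by length and by the library's total) of the 77 core genes ran from 37.3 to 4026 with a median of 1262, and 49 of them were over 1000 FPKM. By counts scaled to library size, 35 of the 100 most abundant genes were core ribosomal protein genes. Rpl41, the shortest protein of the family, led the set with a mean of 4026 FPKM, followed by Rpl32 at 3638 FPKM and Rps26 at 3398 FPKM. Rpl29 and Rpl21 were the lowest core genes, at 37.3 and 38.1 FPKM. The 10 tested genes outside the core had a median of 44.6 FPKM, from 2.95 FPKM for the retrocopy Rpl32l to 373 FPKM for Rpl36al, which is nearly identical to Rpl36a. Rpl3l, which takes the place of Rpl3 in muscle, had a mean of 0.0782 FPKM, and Rps23rg1 one of 0.0466 FPKM. Many processed pseudogenes and retrocopies share sequence with this family, and how reads that map to several places were counted is not given in the sources used here, so levels of single genes, above all of near-identical pairs, are uncertain.

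Library totals ran from 20070123 to 27809960 counts. Opa1 stood at 95.9 ± 4.94 CPM (counts set to a common library size with TMM factors; SD, n = 3) in control, at 36.8 ± 2.52 in knockdown (38.4% of control) and at 31.4 to 33.9 on average in the 3 groups with an OPA1 plasmid. Of 12 sympathetic neuroblast markers 10 had a median over 1 FPKM, and of fibroblast, blood and epithelial markers none of 6, 5 and 3 did. V560F replicate 2 and wild-type OPA1 replicate 3 stood apart from the rest of their groups, as the shares below show, and results are given with and without them where that matters.

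The family's part of all counts was lowest in control and highest with V560F. The 89 genes held 7.23%, 6.78% and 7.22% of the counts in the 3 control libraries and 7.93%, 7.97% and 8.15% in the knockdown libraries. They held 8.15%, 7.81% and 9.27% with wild-type OPA1, 10.1%, 10.1% and 10.5% with V465F, and 10.5%, 12.9% and 10.7% with V560F. Control libraries were below all others, mutant libraries above all others, knockdown and wild-type libraries overlapped, and the lowest V560F library lay just above the highest V465F library. Relative to control, the mean share was 1.13 times as high in knockdown, 1.19 times with wild-type OPA1, 1.45 times with V465F and 1.61 times with V560F. Without V560F replicate 2 its group's mean was 10.6% in place of 11.4%, and without wild-type OPA1 replicate 3 that group's mean was 7.98% in place of 8.41%. Being shares, these values do not tell more ribosomal protein mRNA per cell from less of other mRNA, and in bulk RNA fewer cells of a kind and less RNA per cell cannot be told apart either.

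The balance between the subunits hardly moved. Counts in 60S genes over counts in 40S genes gave a ratio of 1.76 ± 0.000892 in control, 1.78 ± 0.00719 in knockdown, 1.78 ± 0.0142 with wild-type OPA1, 1.78 ± 0.00507 with V465F and 1.77 ± 0.0128 with V560F (SD, n = 3 each). The 60S genes, stalk included, held 4.48% of counts in control and 7.22% with V560F, and the 40S genes 2.54% and 4.08%. A second property of the libraries ran along with the family's share. It is the slope, over all tested genes, of a gene's log2 level on the log10 of its length. Each gene's level was first taken relative to its own mean over the 15 libraries. The sign of a slope is thus relative to the other libraries and does not tell whether long genes were higher than short ones. The slope was 0.42 in control, 0.21 in knockdown, 0.10 with wild-type OPA1, −0.25 with V465F and −0.49 with V560F. Its lowest value, −0.83, was that of V560F replicate 2, the library with the highest share. Without that library the V560F slope was −0.32, and the wild-type OPA1 slope was 0.19 without replicate 3 and 0.045 without replicate 2. Ribosomal protein genes are short, with a median length of 795 bases against 3684 for other tested genes, and the slope's part in their rise was not tested beyond the length comparisons given further on.

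**Figure D1:**
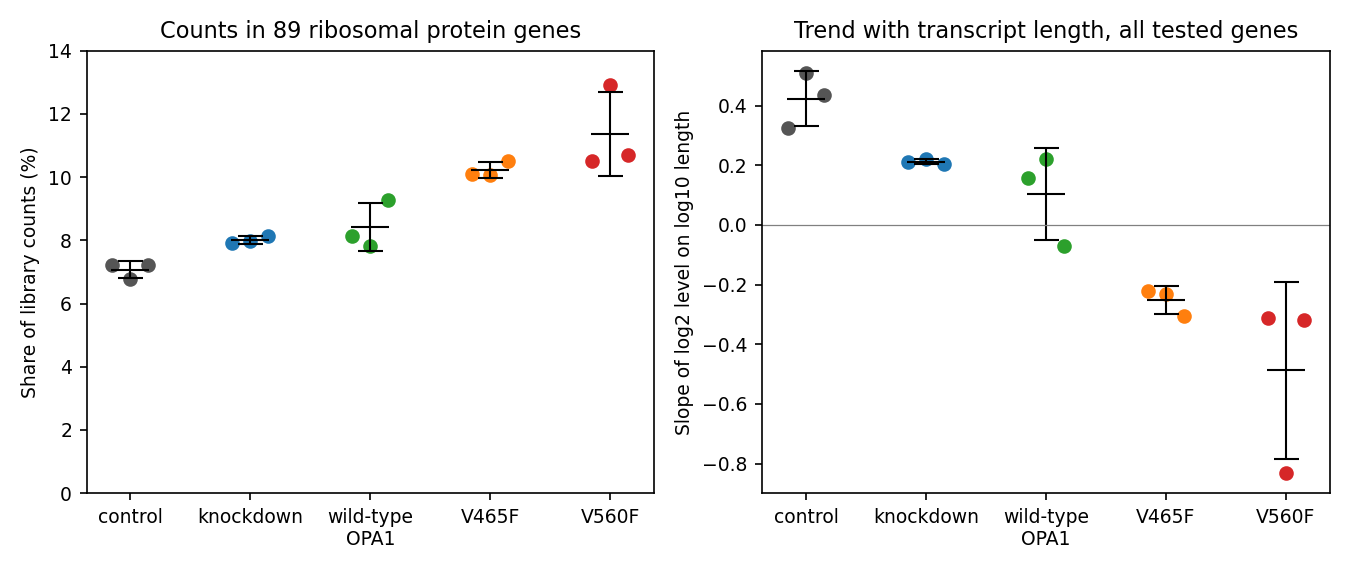
Left, share of each library's counts in the 89 ribosomal protein genes (%), by group. Right, slope over all tested genes of log2 level, relative to each gene's mean over the 15 libraries, on log10 length (bases). Points are libraries, horizontal lines the mean and bars the SD (n = 3); the mutant libraries sit highest in share (10.1% to 12.9%) and lowest in slope (−0.22 to −0.83).

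Across the groups the core genes kept nearly the same order as the family's share. In 72 of 77 core genes the group means rose from control through knockdown, wild-type OPA1 and V465F to V560F. In all 77, V560F replicate 2 was the highest of the 15 libraries. The share over all tested genes was counted neither for this order nor for the highest library, so neither is read as particular to the family. The step from knockdown to wild-type OPA1 turned on wild-type OPA1 replicate 3, without which the family's median was below 0, as given further on. In all 77, every library of both mutants was above every library of the other 3 groups, which held for 16.5% of all tested genes. Neighbours in that order were not all separate: knockdown and wild-type ranges overlapped in all 77 core genes, while they did not in 17.8% of all tested genes. The ranges of the mutants overlapped in 27 core genes and were separate in the rest, as they were in 18.3% of all tested genes.

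**Figure D2:**
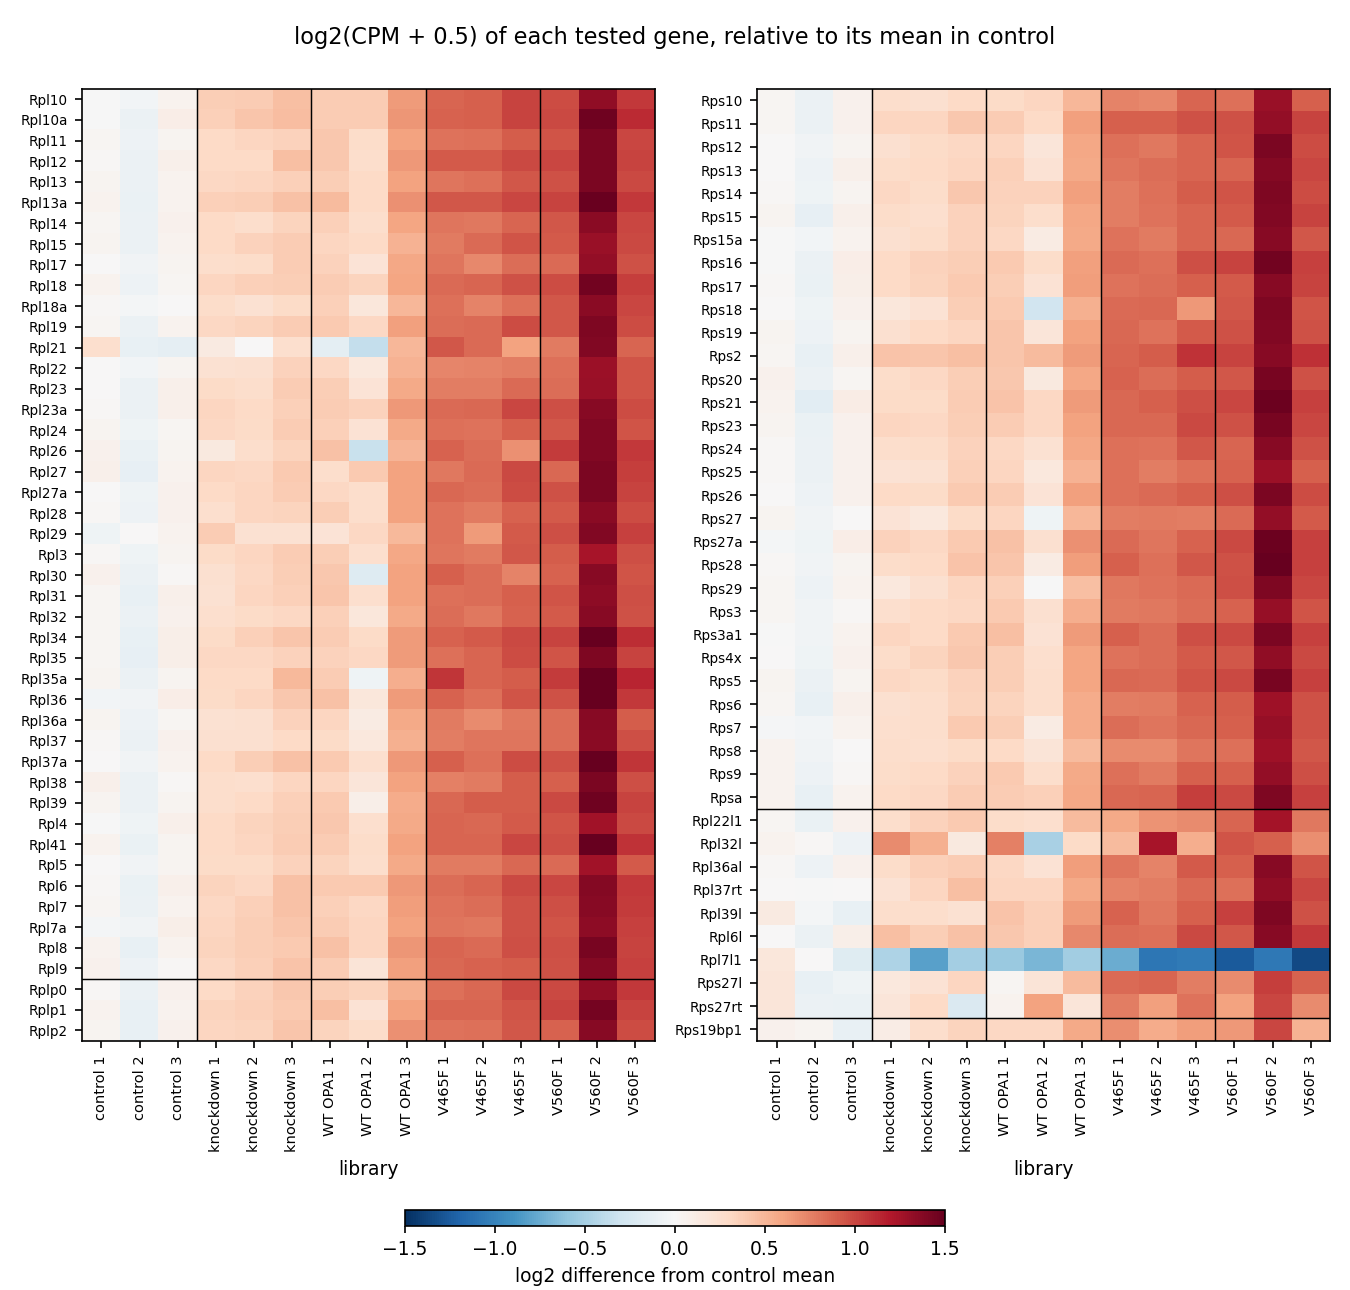
Difference of each tested gene's log2(CPM + 0.5) from its mean in control (colour), with genes in rows by subunit and kind (60S and stalk left; 40S, paralogues and retrocopies, and Rps19bp1 right) and the 15 libraries in columns. Nearly every row darkens together from left to right, most in V560F replicate 2, while Rpl7l1 runs the other way.

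Knockdown against control asks what lowering Opa1 does without an added OPA1. The family rose together: 74 of the 87 tested genes were higher, 1 was lower (Rpl7l1) and 12 did not pass the test (edgeR's quasi-likelihood test, adjusted p under 0.05 over all 13074 genes). Of all tested genes 35.9% were called, 19.9% higher and 16% lower. The median log2 fold change of the family was 0.33, and the core genes ran from 0.12 to 0.43. In 76 of the 77 core genes every knockdown library was above every control library, which was so in 28.8% of all tested genes.

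The stalk, which recruits elongation factors to the 60S subunit, shows the size of the change. Rplp0, its base, stood at 1875, 1747 and 1939 CPM in control and at 2279, 2346 and 2452 CPM in knockdown, with no overlap. Its log2 fold change was 0.35 ± 0.0815 (SE; edgeR adjusted p = 0.00251). Its partners Rplp1 and Rplp2 rose by 0.36 and 0.36.

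In the 40S subunit, Rps2, which lies near the entry of the mRNA channel, had the largest rise of the core, from 941, 848 and 969.8 CPM in control to 1233, 1221 and 1254 CPM in knockdown. The ranges lie far apart, and the log2 fold change was 0.43 ± 0.0852 (edgeR adjusted p = 0.000702). Rps6, the substrate of the S6 kinases, rose by 0.28 ± 0.0876 (edgeR adjusted p = 0.0167), and Rpsa, also known as the laminin receptor, by 0.33. Rps19, needed to mature the 40S subunit and mutated in human Diamond-Blackfan anaemia, rose by 0.29, and Rps27a, made as a fusion with ubiquitin, by 0.35. Rps18, often used as a reference gene, gave 204, 193 and 211 CPM in control and 228, 236 and 262 CPM in knockdown and did not pass (log2 fold change 0.25, edgeR adjusted p = 0.166).

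In the 60S subunit, Rpl5 and Rpl11, which enter the ribosome with 5S rRNA, rose by 0.31 ± 0.0893 and 0.32 ± 0.0952 (edgeR adjusted p = 0.0113 and 0.0124). Rpl13a and Rpl32, both used as reference genes, rose by 0.39 and 0.28. Rpl3, at the peptidyl transferase centre, rose by 0.33. Rpl21 was the exception among core genes, with 62.4, 48.3 and 47.4 CPM in control and 57.6, 52.5 and 62.2 CPM in knockdown. Those ranges overlap, and its log2 fold change of 0.12 did not pass (edgeR adjusted p = 0.596).

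The number of calls in this comparison changed with some settings and with single libraries. DESeq2's size factors and TMM factors taken without the family left it at 77 and 75. With total counts alone 22 of 87 genes were called (25.3%, against 33.8% of all tested genes), the family's median log2 fold change was 0.18, and the median of all tested genes moved to −0.14. With limma-trend on FPKM 16 were called (18.4%, against 35.3% of all). Without control replicate 2 there were 21 (24.1%, against 24.5%), and without knockdown replicate 3 there were 38 (43.7%, against 25%). The family's share of calls was thus at or below that of all genes with total counts, with limma-trend and without control replicate 2.

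Wild-type OPA1 against knockdown asks whether adding the OPA1 plasmid to the knockdown changes the family. Opa1 counts were no higher with that plasmid than without it (31.4 ± 2.27 against 36.8 ± 2.52 CPM; SD, n = 3 each), so added OPA1 is not seen in this table. No ribosomal protein gene was called by edgeR, and none of all 13074 genes was (0%). By an unadjusted p under 0.05, 1 gene of the family would pass, against 8.85% of all genes: Rpl39l (log2 fold change 0.23, edgeR adjusted p = 0.542), and DESeq2 called 0. The family's median log2 fold change was 0.08, and a gene's 95% interval reached 0.20 to either side (median). The median turned to −0.014 without wild-type OPA1 replicate 3, was 0.16 without replicate 2 and was 0.021 with an offset for length and GC content (given further on). Rplp0 stood at 2384, 2335 and 2690.0 CPM with wild-type OPA1, where the third value is that of the library that stands apart and the other two lie within the knockdown range. The retrocopy Rpl32l had the lowest value, −0.31, at levels of 0.639 to 2.19 CPM.

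V560F against wild-type OPA1 gave the largest rise. It covered 85 of 87 genes; Rpl7l1 was lower and Rpl32l did not pass, against 49.4% of all tested genes called (24.5% higher, 24.9% lower). The median log2 fold change was 0.70, a fold of 1.63, and all 77 core genes lay between 0.63 and 1.00. The 3 highest were 60S genes: Rpl21 at 1.00, Rpl35a, mutated in human Diamond-Blackfan anaemia, at 0.95, and Rpl26, which lies by the exit of the peptide tunnel, at 0.93. All 3 had a high spread within groups, and their lowest wild-type value was that of replicate 2. For Rpl26 that was 88.0 CPM, against 151 and 158 CPM in the other wild-type libraries.

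Rplp0 rose from the wild-type values above to 3691, 4649 and 3861 CPM with V560F. All 3 libraries were above the wild-type ones, the second by far. The log2 fold change was 0.72 ± 0.0818 (edgeR adjusted p = 7.53e-07). Rpl5 rose by 0.63 and Rpl11 by 0.70, and in the 40S subunit Rps6 rose by 0.67, Rps19 by 0.71, Rps27a by 0.71 and Rpsa by 0.71. The reference genes rose as well, Rpl13a by 0.71, Rpl32 by 0.72 and Rps18 by 0.86 ± 0.142. Rpl21 was at 47.3, 40.8 and 74.3 CPM with wild-type OPA1 and at 89.998, 138 and 96.3 CPM with V560F, and its groups did not overlap. Without V560F replicate 2 the family's median was 0.55, and leaving out each of the 6 libraries in turn gave 84 to 86 genes called.

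V465F against wild-type OPA1 gave a smaller rise of the same kind. It covered 84 of 87 genes, with Rpl7l1 lower and Rps19bp1 and Rpl32l not passing, against 38.2% of all tested genes (18.1% higher, 20% lower). The median log2 fold change was 0.45, a fold of 1.37, and the core ran from 0.38 to 0.76. Rplp0 stood at 3292, 3355 and 3673 CPM with V465F, above every wild-type library, a log2 fold change of 0.48 ± 0.0816 (edgeR adjusted p = 0.000136). Rpl5 rose by 0.41, Rpl11 by 0.42, Rps6 by 0.42, Rpsa by 0.49 and Rps18 by 0.54. Rpl21 and Rpl35a again led the core, at 0.76 and 0.65. Both mutants are set against the same wild-type libraries, so their values are given side by side and not as separate support.

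V465F against V560F, the direct test of the mutants, called no ribosomal protein gene by edgeR, and 0.00765% of all genes. The family's median log2 fold change was −0.26, all core genes were below 0 (−0.37 to −0.19), and 81 of the 87 tested genes had an unadjusted p under 0.05, against 18.2% of all tested genes, with the smallest adjusted p at 0.143. Rpl26, Rpl29 and Rpl22l1 had the lowest values, −0.37, −0.35 and −0.33. The outcome of this comparison turned on single libraries and on the filter. Without V560F replicate 2 the median was −0.11 and 7 genes had an unadjusted p under 0.05; the median was −0.16 with total counts and −0.089 with the length and GC offset. Without V560F replicate 1, 52 genes were called (6.15% of all genes). With no filter 72 were called lower (2.58% of all genes called), and DESeq2 called 1 (1.12% of all).

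**Figure D3:**
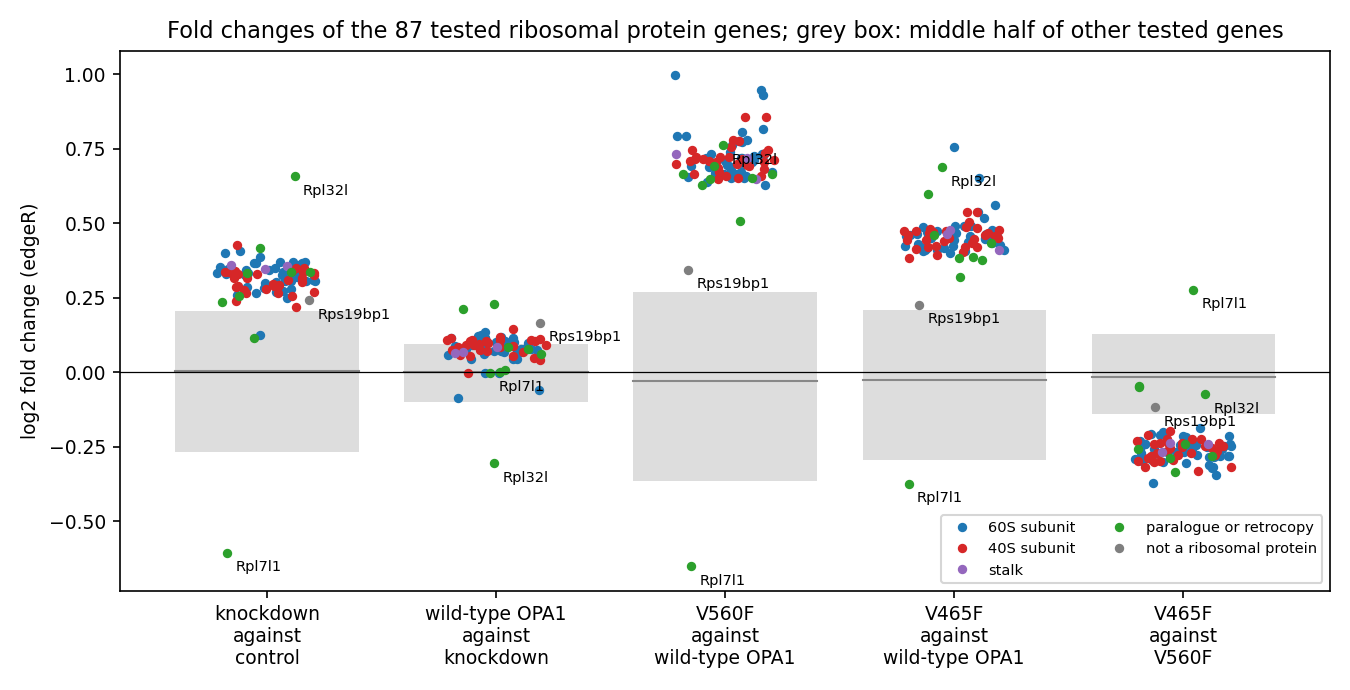
Log2 fold change (edgeR) of each of the 87 tested genes in the 5 comparisons, coloured by subunit or kind; the grey box runs between the quartiles of all other tested genes and its line their median. Core genes lie at 0.12 to 0.43, 0.63 to 1.00 and 0.38 to 0.76 in the comparisons with called genes, and Rpl7l1 lies below 0 in each of these.

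Each library was then scaled to the family's own total, which asks whether a gene moved apart from the family. In knockdown against control only Rpl7l1 was called (log2 fold change −0.93, edgeR adjusted p = 0.000353), while 37.5% of all genes were (36.9% lower), since on this scale everything outside the family is shifted. In wild-type OPA1 against knockdown and in V465F against V560F none was called, and 0% of all genes were. In V465F against wild-type OPA1 only Rpl7l1 was called (−0.83, edgeR adjusted p = 0.00024), against 60.9% of all genes (60.5% lower). In V560F against wild-type OPA1 there were 4, against 78.9% of all genes (78.5% lower). Rpl7l1 gave −1.35 ± 0.145 (edgeR adjusted p = 2.18e-06), Rps19bp1 −0.36 ± 0.101 (0.00407), Rpl35a 0.25 ± 0.0928 (0.0195) and Rps29 0.16 ± 0.0599 (0.0238). These low counts depended on leaving length and GC content uncorrected. With the length and GC offset, the same scale gave 18 of the 87 genes in knockdown against control, 55 with V560F against wild type and 38 with V465F. Of all genes 35.6%, 56.2% and 40.5% were called. As a share, the family's calls lay below those of all genes in knockdown and not far above them with the mutants. Nothing is read from these counts about the family.

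The calls of Rpl35a and Rps29 did not hold under several settings. Rpl35a stood at 116, 84.9 and 129.7 CPM with wild-type OPA1, and without the second library its value relative to the family fell from 0.25 to 0.16 and was no longer called (edgeR adjusted p = 0.121). Rps29, a zinc-finger protein of the 40S head, stood at 544, 425 and 582 CPM, and without that library it gave 0.098 (edgeR adjusted p = 0.144). Both were also lost with only the 6 libraries compared (edgeR adjusted p = 0.1003 for Rpl35a and 0.133 for Rps29) and with the offset (0.042 and −0.11), and Rps29 with no filter (0.105). The count was 2 without wild-type OPA1 replicate 2 and 7 without replicate 1.

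Rpl7l1 was the single gene of the family that fell. It is related to Rpl7, a protein of the 60S surface, and its yeast counterpart Rlp7 is an assembly factor of the large subunit. Control libraries had 36.3, 32.5 and 28.4 CPM, knockdown libraries 23.3, 18.1 and 22.5 CPM, and wild-type OPA1 libraries 21.7, 19.8 and 22.4 CPM. V465F libraries had 19.0, 14.99 and 15.3 CPM and V560F libraries 13.2, 15.1 and 12.4 CPM. Control stands above every other group, knockdown and wild type overlap, and both mutants lie below every wild-type library. The log2 fold change was −0.61 ± 0.112 in knockdown against control (edgeR adjusted p = 0.000376), −0.65 ± 0.122 for V560F against wild-type OPA1 (edgeR adjusted p = 0.000142) and −0.37 ± 0.119 for V465F (edgeR adjusted p = 0.0161). The last of these did not hold without wild-type OPA1 replicate 3 (−0.33, edgeR adjusted p = 0.0507), V465F replicate 2 (−0.31, 0.0798) or V465F replicate 3 (−0.32, 0.081). Rpl7 itself went from 1532, 1412 and 1554 CPM in control to 2934, 3871 and 3111 CPM with V560F, and rose by 0.37, 0.70 and 0.43 in the same 3 comparisons.

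Of the 9 tested paralogues and retrocopies, Rpl7l1 included, 4 were higher and 1 lower in knockdown against control, and 7 were higher and 1 lower with either mutant against wild type. The retrocopy Rpl32l passed in none of these while Rpl32 rose in each. Rpl6l rose by 0.42, 0.63 and 0.39 in knockdown, V560F and V465F, and Rpl37rt by 0.33, 0.66 and 0.38. Rps27rt, at under 10 CPM on average in every group, gave 0.11 in knockdown, which did not pass (edgeR adjusted p = 0.646), and rose by 0.51 and 0.46 with the mutants; both rises were lost without wild-type OPA1 replicate 1 or 3 (edgeR adjusted p = 0.0563 to 0.16), that of V560F also without V560F replicate 2 (0.0917) and that of V465F without V465F replicate 1 or 3 (0.0851 and 0.116). With the length and GC offset, Rps27rt was below 0 in all 3 comparisons and Rpl37rt passed in none. Rpl22l1, which can take the place of Rpl22 and is repressed by it, stood at 63.2, 57.7 and 65.0 CPM in control and 114, 147 and 107 CPM with V560F. It rose by 0.34, 0.65 and 0.32 in knockdown against control, V560F and V465F against wild type, beside 0.27, 0.69 and 0.41 for Rpl22, but with the length and GC offset it turned to −0.073 with V560F (edgeR adjusted p = 0.29) and was called lower with V465F, at −0.15 (edgeR adjusted p = 0.0279). The V465F rise was also lost with total counts (0.15, edgeR adjusted p = 0.126), with limma-trend, among lengths up to 1500 bases (0.037, 0.663) and without wild-type OPA1 replicate 2 (0.28, 0.0504). Rps27l, a p53 target related to Rps27, had 25.5, 20.8 and 21.4 CPM in control, 22.9, 25.7 and 31.3 CPM with wild-type OPA1, 41.0, 41.5 and 38.7 CPM with V465F and 36.9, 46.8 and 41.7 CPM with V560F. Its mutant libraries are all above the others, and its log2 fold changes were 0.65 for V560F and 0.60 for V465F, beside 0.78 and 0.50 for Rps27. In knockdown against control neither passed (0.23 for Rps27l, edgeR adjusted p = 0.0921; 0.22 for Rps27, 0.12).

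Rpl39l, known as the testis form of Rpl39, was present here at a mean of 47.6 FPKM. It stood at 30.2, 26.9 and 25.5 CPM in control and 56.4, 73.1 and 53.6 CPM with V560F. It rose by 0.67 and 0.38 with V560F and V465F against wild type, beside 0.82 and 0.54 for Rpl39; in knockdown against control Rpl39 rose by 0.31 and Rpl39l gave 0.25 (edgeR adjusted p = 0.0528). Rpl36al rose by 0.34 in knockdown and 0.69 with V560F, and its parent Rpl36a rose by 0.71 with V560F. Rpl10l and Rps4l were not analysed here.

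Rps19bp1, which binds Rps19 and acts on the deacetylase SIRT1, is no ribosomal protein and followed the family at a distance. It had 27.1, 26.7 and 24.0 CPM in control, 32.3, 32.2 and 38.7 CPM with wild-type OPA1, 42.2, 38.4 and 40.2 CPM with V465F and 41.0, 52.6 and 37.5 CPM with V560F. The mutants overlap the highest wild-type library. Its log2 fold change for V560F was 0.34 ± 0.104 (edgeR adjusted p = 0.00857), which did not hold without V560F replicate 2 (0.19, 0.0923) and was −0.13 with the length and GC offset. For V465F it was 0.23 (edgeR adjusted p = 0.0893), and in knockdown against control 0.24 (0.0776).

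**Figure D4:**
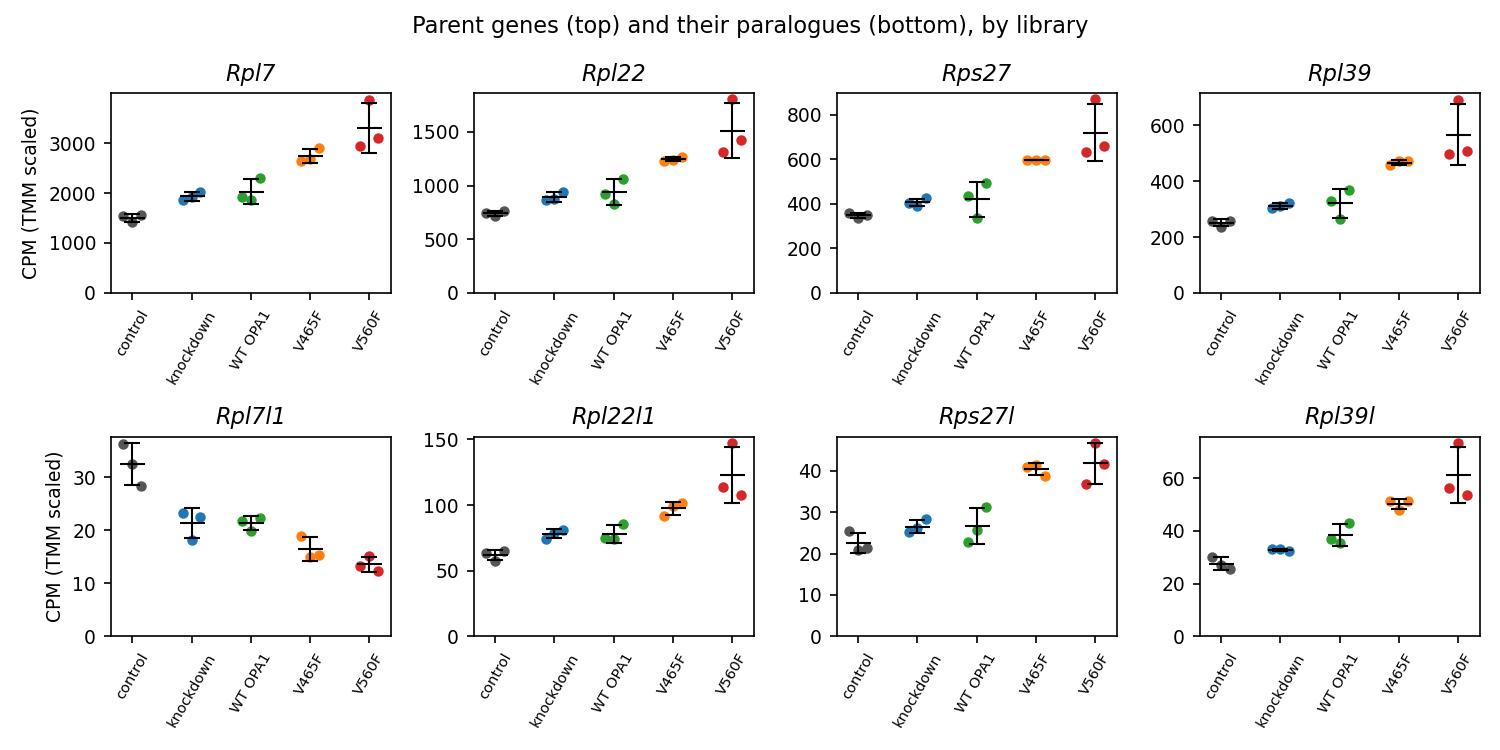
CPM by library for 4 core genes (top) and their paralogues (bottom), with mean and SD (n = 3) per group. Rpl7l1 falls from 28.4 to 36.3 CPM in control to 12.4 to 15.1 CPM with V560F, while the other 7 genes rise.

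Because the family is short and the libraries differ in their slope with length, its genes were set beside other genes of the same length. In V560F against wild-type OPA1 the median log2 fold change of the family was 0.69 to 0.71 in every length class. That of other genes was 0.65 up to 500 bases (111 genes), 0.47 above that and up to 1000 (591 genes), 0.32 up to 1500, 0.17 up to 2500 and −0.15 over 2500. The gap was thus 14 family genes at 0.71 against 0.65 in the shortest class, and 13 genes at 0.69 against 0.17 in the class up to 2500. Lengths are those behind the deposited FPKM values, which give 2326 bases for Rpl19 and 5136 bases for Rps15a. Whether the transcripts in these cells were that long was not tested, and the wide gaps in the longer classes depend on these lengths. In V465F against wild-type OPA1 the family had 0.44 to 0.48, and other genes went from 0.40 in the shortest class to −0.10 in the longest. In knockdown against control the family had 0.26 to 0.33, and other genes went from 0.25 to −0.04.

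An offset for length and GC content, fitted to each library, took most of the rise away. With it, 33 of 87 family genes were called in knockdown against control (37.9%, against 37.8% of all tested genes), with a median log2 fold change of 0.11. In V560F against wild type 56 were called (64.4%, against 43.7%), with a median of 0.19, and in V465F against wild type 35 (40.2%, against 35.5%), with 0.10. In knockdown and V465F the family's share of calls was thus near that of all genes. Since the family makes up much of the short and abundant genes, the offset was also fitted without it. That gave 38, 64 and 34 of the 87 family genes called. As shares these lie above the 37.9%, 43.8% and 35.5% of all genes, by least for V465F. Length in bases is that behind the deposited FPKM values.

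**Figure D5:**
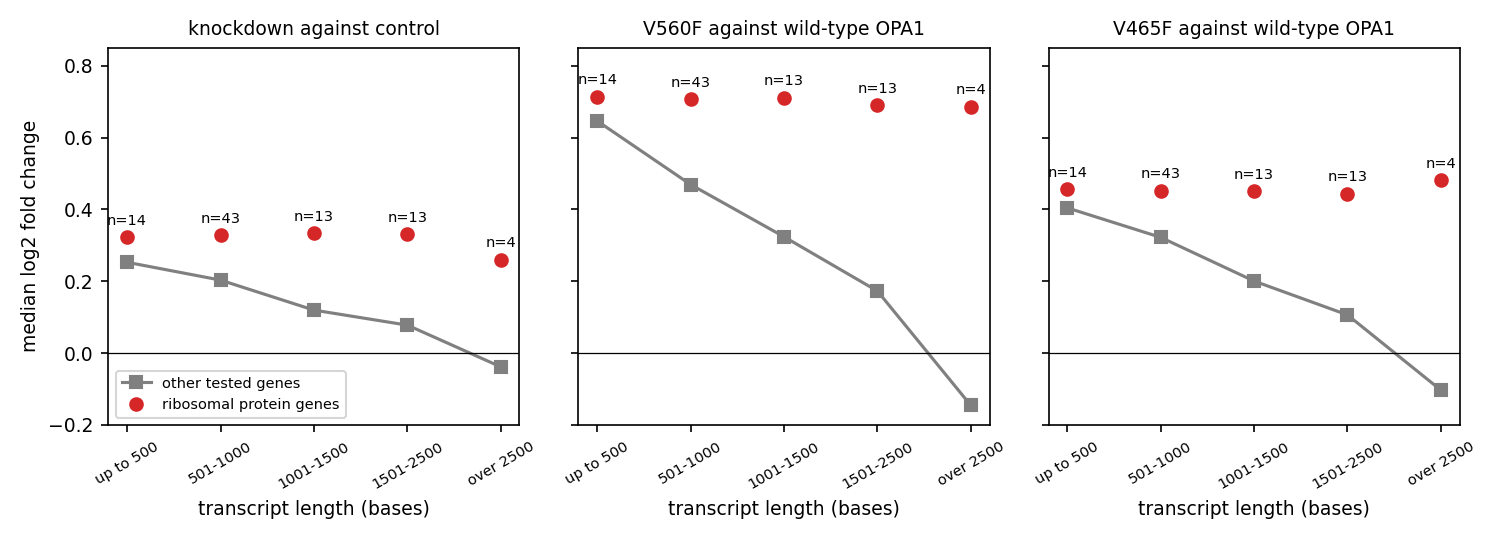
Median log2 fold change of ribosomal protein genes (red, with their number) and of other tested genes (grey) in classes of length (bases), for 3 comparisons. The red points stay level, at 0.69 to 0.71 for V560F, while the grey line falls from 0.65 to −0.15. Lengths are those behind the deposited FPKM values, and whether the transcripts present had these lengths was not tested.

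Other lists of the pathway are read against all tested genes, whose median log2 fold change was 0.0086 in knockdown, −0.025 with V560F and −0.023 with V465F, and of which 35.9%, 49.4% and 38.2% were called. These medians take in genes of all lengths, and in each comparison the median of genes outside the family fell with length, as given above. The lists were not set beside genes of the same length, and no values with the length and GC offset are given for them. The part of length in their changes was thus not tested. Other mRNAs with a TOP tract changed in the same direction and nearly as far. Of 25 listed TOP mRNAs outside the family, such as elongation factors, 24 were higher and 0 lower in knockdown against control, with a median log2 fold change of 0.33. All 25 were higher in V560F against wild type (median 0.60) and in V465F against wild type (0.41). Eef1a1, the elongation factor that brings tRNA to the ribosome, rose from 16050 ± 1211 CPM with wild-type OPA1 to 24923 ± 2249 CPM with V560F, a log2 fold change of 0.63 ± 0.0764 (edgeR adjusted p = 1.34e-06; n = 3 per group). Eif3k, a subunit of initiation factor eIF3, rose by 0.69, Eif3h by 0.64 and Eif3l by 0.60.

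Genes of the machinery that makes ribosomes were called in both directions. Of 38 assembly and rRNA processing genes, 21 were higher and 1 lower in knockdown against control (median 0.21), but with V560F against wild type 16 were higher and 3 lower, with a median of 0.05, and with V465F 15 and 3, with 0.06. Among those that rose with V560F were Nop58 at 0.55, a core protein of box C/D particles, Ncl at 0.54, nucleolin, Nop10 at 0.80, of box H/ACA particles, and Gnl3 at 0.55, nucleostemin. Of 30 subunits and factors of RNA polymerases I and III, 6 were higher and 5 lower in knockdown, 8 and 10 with V560F, and 6 and 8 with V465F. For assembly genes with V560F and polymerase genes in knockdown, the share called was near that of all tested genes. Nothing is read from those counts. Polr1a, the largest subunit of polymerase I, fell from 30.1 ± 4.12 to 17.3 ± 2.85 CPM with V560F (log2 fold change −0.80 ± 0.11, edgeR adjusted p = 4.89e-06; n = 3 per group), while Taf1d, Polr1c and Gtf3a rose by 0.62, 0.48 and 0.51.

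Genes around the ribosomal proteins gave mixed counts too. Of 14 chaperones and import factors, 6 were higher in each of these comparisons, and 2, 3 and 3 were lower in knockdown, V560F and V465F; with V560F the importin Ipo5 rose by 0.48, and Nacad, related to the nascent polypeptide complex, fell by 0.81. Of 19 regulators of TOP mRNA translation, 5 were higher and 2 lower in knockdown, 4 and 5 with V560F, and 3 and 3 with V465F. These shares were near or below those of all tested genes called, and nothing is read from them about the list. Eif4ebp1, the cap-binding repressor downstream of mTORC1, rose by 0.57 with V560F, its target Eif4e by 0.40, and Eif4ebp2 fell by 0.32 with V465F. Of 16 transcription factors linked to ribosomal protein promoters, 6 were higher and 1 lower in knockdown, where Sp1 rose by 0.42, Sp3 by 0.38 and Yy1 by 0.31. With the mutants 4 and 1 were higher and 3 and 3 lower, shares below those of all tested genes called. Zbtb7a stood at 15.5 ± 0.955 CPM with V465F against 31.6 ± 0.809 CPM with wild-type OPA1 (log2 fold change −1.03 ± 0.0808, edgeR adjusted p = 3.26e-08, n = 3 per group).

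Of 11 tested genes of the Mdm2 and p53 response, which free ribosomal proteins can set off, 3 were higher and 0 lower in knockdown against control, 2 were higher and 2 lower with V560F, and 1 and 2 with V465F. These shares are below the shares of all tested genes called in the same comparisons, and nothing is read from them about the list. Cdkn1a, the p21 cell cycle inhibitor, rose by 0.54 and Zmat3 by 0.23 in knockdown; with V560F Bbc3 (PUMA) rose by 0.62 and Sesn1 fell by 0.28. Of 16 ribosome rescue and quality control genes, 5 were higher and 1 lower in knockdown, a share near that of all tested genes called. Counts were 6 and 5 with V560F, and 4 and 4 with V465F. With V560F Edf1, a sensor of collided ribosomes, rose by 0.58 and Gigyf2, which represses initiation on them, fell by 0.54.

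By their medians, the nearest families by function moved less far. Of 78 mitochondrial ribosomal protein genes, 25 were higher and 3 lower in knockdown (median log2 fold change 0.19), 60 and 0 with V560F (0.37), and 44 and 0 with V465F (0.26). In knockdown the share called was near the 35.9% of all tested genes, and nothing is read from that count. Of 53 tested genes for translation initiation factors, 33 were higher and 5 lower in knockdown (0.25), 35 and 5 with V560F (0.33), and 30 and 6 with V465F (0.25). This set was taken by symbols of Eif and a digit and shares genes with lists above. Among these are Eif3k, Eif3l and Eif3h of the TOP mRNAs and Eif4ebp1 and Eif4e of their regulators, so the lists are not separate. The gaps between these medians and those of the cytosolic family were not tested, and neither family was set beside other genes of the same length.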

How the data were processed

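Per the labels' protocols, total RNA was made into libraries with the VAHTS Universal V6 kit. The authors used fastp, HISAT2, HTSeq and R 3.2.0 with mouse build GRCm39, per the submitters' processing notes; the other versions, the annotation, the strand setting and the treatment of reads with several matches are not given in the sources used here. The authors deposited raw counts per gene, and FPKM values, which divide the counts by length and by the library's total.

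From the counts, edgeR 4.0.16 (R 4.3.3) was run with TMM scaling, its default filter on low counts and a quasi-likelihood fit with 1 mean per group over all 15 libraries, which leaves 10 residual degrees of freedom. Genes were called at a Benjamini-Hochberg adjusted p under 0.05 over 13074 genes. The fit was run again with libraries scaled to the summed counts of the 87 tested genes of the family. CPM values use TMM scaling. The fit was also run on simulated data with known changes, whose outcome is not given here. The simulated libraries held no trend with length, so that run does not bear on the part of length. The median coefficient of biological variation was 8.22%.

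The gene set, the 8 other lists and the genes named were chosen with earlier results of these data known. Named were stalk genes, Rpsa, Rpl5, Rpl11, Rps6, Rps19, Rps27a, reference genes, paralogues with parents, Rps19bp1, the 3 highest and 3 lowest genes of a comparison, genes apart from the family total, and up to 4 called genes of each list; some are given by levels alone.

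Alternatives were total-count scaling, DESeq2 1.42.0, TMM without the family, DESeq2 size factors in edgeR, no filter, 5 FPKM in at least 3 libraries as the filter, limma-trend (3.58.1) on log2(FPKM + 1) and log2(FPKM + 0.1), only the 6 libraries compared, a replicate block, each library left out, lengths up to 1500 bases, and a length and GC offset (splines with 5 degrees of freedom). GC content was matched for 95.7% of tested genes. Leaving V560F replicate 2 and wild-type OPA1 replicate 3 out together was planned with their distance known from earlier results. Fitting the offset without the family and the family total over the core were chosen after seeing the data.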

Additional observations from a re-analysis of the deposited data

How the results depend on the processing

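Leaving out a library changed the mean share of counts and the mean length slope of a group as given above, slopes by over 1.5 times. With 3 libraries a group such a change is always less than the SD, so the SD is no measure of stability here. Counts of genes called moved as well. Knockdown against control gave 75 as reported, 22 with total counts, 30 with a filter of 5 FPKM, 16 with limma-trend at either pseudocount, 33 with the length and GC offset, 38 with the offset fitted without the family and 40 among lengths up to 1500 bases. The last count is out of fewer genes of the family, since longer ones are left out. Shares of all tested genes are given above for total counts, limma-trend and both offsets, and not for the FPKM filter or the length limit. Leaving out each library gave 21 to 70. For V560F against wild-type OPA1 the offset gave 56 in place of 86 (left-out libraries 84 to 86). For V465F against wild-type OPA1 it gave 35, and 34 when fitted without the family, in place of 85 (83 to 85). For V465F against V560F, no filter gave 72, DESeq2 1 and left-out libraries 0 to 52, in place of 0. Relative to the family total, knockdown against control gave 5 with only the 6 libraries, 18 with the offset and 4 without V560F replicate 2 and wild-type OPA1 replicate 3 together, in place of 1. V560F against wild-type OPA1 gave 2, 55 and, among lengths up to 1500 bases, 7, in place of 4 (left-out libraries 2 to 7). V465F against wild-type OPA1 gave 3 with no filter or with the FPKM filter, 4 with DESeq2 or without the pair of libraries, 2 with 6 libraries or lengths up to 1500 bases and 38 with the offset, in place of 1 (left-out libraries 1 to 3). V465F against V560F gave 1 with no filter or DESeq2, in place of 0 (0 to 1). Without the 50 most abundant other genes in the total, the shares were 8.56%, 9.84%, 10.4%, 12.8% and 14.5% from control to V560F in the order of the text. The causes were not tested.

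Single genes turned sign as follows. In knockdown against control, Rpl21 was at −0.023 with total counts, −0.013 with log2(FPKM + 1) and −0.014 with log2(FPKM + 0.1). With the offset, and with it fitted without the family, Rpl39l was at −0.011 and −0.0019, and Rps27 at −0.060 and −0.040; Rps18 was at −0.0018 with the offset. Against wild-type OPA1, Rps19bp1 was at −0.13 and −0.12 for V560F and −0.084 and −0.073 for V465F, and among lengths up to 1500 bases at −0.10 and −0.054. Rpl22l1 was at −0.073 and −0.049 for V560F and −0.15 and −0.14 for V465F. Rps29 relative to the family total was at −0.11 for V560F with the offset. Rps27rt was at −0.031 with total counts, −0.046 and −0.049 with log2(FPKM + 1) and log2(FPKM + 0.1), −0.22 and −0.21 with the offsets and −0.063 among lengths up to 1500 bases in knockdown against control (−0.0037 to 0.26 as libraries were left out), at −0.28 and −0.25 with the offsets for V560F and at −0.062 and −0.041 for V465F. Rpl32l in wild-type OPA1 against knockdown ran from −0.74 to 0.061 as libraries were left out.

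Replicate numbers did not pair the libraries: correlations of same-numbered libraries ran from −0.16 to 0.083. A fit with the replicate number as a block gave 73, 0, 86, 85 and 0 genes called in the order of the text, and 1, 0, 4, 1 and 0 relative to the family total. With 3 libraries a group, 95% intervals of a log2 fold change reached 0.20 to either side (median of these genes), and the SE of the low Rpl32l was 0.34.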

Other observations

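Within groups, the core genes kept their parts of the family's counts closely, and a few did not. The pooled SD, over the 15 libraries and within groups, of the log2 of a gene's part of the family's CPM had a median of 0.032 among the 77 core genes. It was 0.20 for Rpl21, 0.18 for Rpl26, 0.16 for Rps18, 0.14 for Rpl30 and 0.11 for Rpl35a, genes picked here for their high spread after their values were seen. In wild-type OPA1 replicate 2 most of them were low together: Rpl26 stood at 88.0 CPM there and at 151 and 158 CPM in the other libraries of the group. Rpl30 stood at 192 CPM against 293 and 333 CPM, and Rps18 at 165 CPM against 266 and 293 CPM.

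Of the "-ps" rows that the name rule leaves out, 10 hold counts, and together they came to 0.0316% to 0.0352% of the family's counts by group mean. Rps18-ps4 had 214, 150 and 244 counts in the wild-type OPA1 libraries, with the second lowest as in Rps18, and Rps15a-ps5 had 70, 25 and 77 counts. In V560F against wild-type OPA1, Rps18-ps4 gave a log2 fold change of 1.05 ± 0.206 (edgeR adjusted p = 0.000243) and Rpl34-ps1 one of 0.67 ± 0.114 (edgeR adjusted p = 4.86e-05). Whether these counts are reads of the parent genes was not tested.

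Across the 77 core genes, Spearman's correlation of mean level with log2 fold change was −0.53 in V560F against wild-type OPA1 and 0.29 in knockdown against control. These genes share their libraries and are not independent, so the values are a description.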
